A study of Homo sapiens with 9 samples.

Results

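The sites described here are the 3261 ZNF395-eGFP peaks of A498 cells that overlapped, by 1 bp or more, no GFP peak of 3 other lists: tagged 786-O, parental A498 and parental 786-O. They were chosen from 7718 tagged A498 peaks, of which they made up 42.3% (exact 95% binomial interval 41.1 to 43.4), and from 52875 peaks in all 5 lists of the study. They are called A498-only peaks below, and the remaining 4457 tagged A498 peaks are called the other A498 peaks. Of the A498-only peaks, 37 overlapped a MYC peak of 786-O and 3224 did not.

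A498 and 786-O are established human cell lines from clear cell renal cell carcinoma. The study used chromatin immunoprecipitation followed by sequencing (ChIP-seq). An antibody against GFP was applied to cells of each line with eGFP knocked in at ZNF395 (tagged) and to parental cells without the knock-in, and an antibody against MYC to parental 786-O. Whether the tagged cells were a clone or a pool is not given in the labels. With 1 library in each group, differences cannot be checked against replicates; intervals reflect only the counting of peaks, as if each were independent. The cell line field of the samples titled A498 reads 786-O, and the sample titled MYC names P300, a coactivator, in its target field, while its antibody field names c-Myc. Both names are used here as the titles give them, and peak lists cannot check a cell line by its marker genes.

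ZNF395 is a zinc finger transcription factor whose gene is induced in hypoxia and is highly expressed in clear cell renal carcinoma. MYC is a transcription factor that binds widely at active promoters, among them those of growth and ribosome genes. In a ChIP-seq peak list, a site found in one line and not in another may lie anywhere from a strongly bound region to one just above the calling threshold, so the strength of the peaks is given first.

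The A498-only peaks were mostly weak and narrow. The authors' score, read as the −log10 of a p or q, ran from 2.01 to 73.4 with a median of 4.49, with quartiles of 3.44 and 5.77. The other A498 peaks had a median of 7.28. Scores above 10 were held by 117 A498-only peaks (3.59%) and by 1405 of the other peaks (31.5%), and scores above 20 by 19 and 454. The median width was 210 bp against 296 bp, and 42.5% of the A498-only peaks were under 200 bp, close to the narrowest width in the list, 166 bp. These values come from the library that the rule used and are a description. In all, 1 of the 100 highest tagged A498 peaks and 53 of the 1000 highest were A498-only. When the tagged A498 list was divided by score into 10 equal parts, the A498-only share was 68.1% (526 of 772) in the lowest part, 53.4% in part 5, 17.6% in part 8 and 4.79% (37 of 772) in the highest.

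Some scores were shared by many A498-only peaks. The 3261 peaks held 1116 different scores (34.2% of their number), against 42.8% for the other A498 peaks and 39.4% for the 20034 tagged 786-O peaks. The 10 commonest scores took in 589 peaks (18.1%), against 8.64% among the other A498 peaks and 1.50% in the tagged 786-O list. Lists of unlike length and score range can differ in such a share. The commonest, 4.49, was held by 86 peaks, and the next, 5.12 and 3.90, by 84 and 81. The lists give no read counts, so how many reads stood behind such a score is unknown.

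The strongest A498-only peak spanned 469 bp of chromosome 3 (153839402 to 153839870, hg19) and had a score of 73.4, rank 40 among all tagged A498 peaks. It stood alone: the nearest tagged 786-O peak was 131 kb away, the nearest MYC peak 202 kb and the nearest parental peak of either line more than 1 Mb away (1078 kb). The next, on chromosome 2 at 47798417 to 47798804, had a score of 47.9 and rank 103, with the nearest tagged 786-O and MYC peaks each 168 kb away. Many of the peaks that followed lay beside parental peaks. Of the 10 highest A498-only peaks without MYC, 5 had a parental peak of A498 or 786-O within 3 kb, a distance chosen after the values were seen, and 3 lay in 1 Mb bins dense in parental peaks (10 or more in either line). Over all A498-only peaks, the share within 3 kb of a parental peak of either line was not counted. At the wider distance of 10 kb, and for each line apart, 2.64% of them had a parental A498 peak and 2.67% a parental 786-O peak.

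On chromosome X at 61718939 to 61719109 (171 bp, score 36.4), a parental A498 peak lay 0.16 kb away and a parental 786-O peak 0.62 kb. Near 2 peaks of chromosome 4, at 49515493 to 49515914 and 49299123 to 49299521 (scores 28.7 and 26.0), parental A498 peaks lay 0.845 and 5.23 kb away. The peak on chromosome 7 at 5560685 to 5561220 (score 28.2) had parental peaks of both lines within 1.38 kb. The chromosome 8 peak among these 10 (score 27.3) had a parental A498 peak 0.251 kb away and no tagged 786-O peak within 409 kb. The remaining peaks were of a mixed kind. Those on chromosome 17 at 72747742 to 72748053 and chromosome 6 at 34205935 to 34206205, with scores of 29.5 and 25.4, lay 1.71 and 0.536 kb from a tagged 786-O peak. The chromosome 17 peak, also among the 5 above, lay 2.83 kb from a parental 786-O peak. The peak on chromosome 19 at 34286246 to 34287237 (score 28.2), the widest A498-only peak with 992 bp, lay 17.1 kb from a tagged 786-O peak.

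The 5 peaks next below the median score were on chromosomes 7, 8 and 9, with scores of 4.47 to 4.48, and lay 25.4 to 289 kb from the nearest tagged 786-O peak. That on chromosome 9 at 3236451 to 3236664 was 289 kb from the nearest tagged 786-O peak and 4382 kb from the nearest parental A498 peak. That on chromosome 7 at 57430764 to 57430932 was 120 kb and 160 kb from them. The nearest of the 5 to other lists, on chromosome 9 at 135845747 to 135845912, had a tagged 786-O, a parental 786-O and a MYC peak each within 25.7 kb. Among the widest peaks were those on chromosome 12 at 6647521 to 6648497 (977 bp, score 15.3) and chromosome 15 at 63336262 to 63336997 (736 bp, score 6.66), both with a MYC peak within 1.23 kb, and that on chromosome 9 at 139729691 to 139730594 (904 bp, score 13.3).

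MYC peaks were rare at A498-only sites. The MYC list was not used to choose these sites, and 37 of 3261 (1.13%, 0.800 to 1.56) overlapped a MYC peak, against 46.8% of all tagged A498 peaks and 80.2% (79.0 to 81.4) of the other A498 peaks. MYC was mapped in 786-O, the line whose tagged peaks the rule removed, and 60.9% of all MYC peaks overlap a tagged 786-O peak, so part of this gap follows from the rule. Among A498 peaks without a tagged 786-O peak, 13 of the 89 that lay at a parental peak (14.6%, 8.01 to 23.7) had MYC. From the side of MYC, 25 of the 7892 MYC peaks without a tagged 786-O peak (0.317%) were at A498-only sites. At the other A498 peaks, most of which overlapped a tagged 786-O peak themselves, there were 11 (0.139%). Of all 20199 MYC peaks, 37 (0.183%) were at A498-only sites. The share with MYC depended on the overlap rule. It was 8.07%, against 39.4% of the other A498 peaks, with a 50% reciprocal overlap, and 9.47% against 58.1% with midpoints within 200 bp. It was 4.00% against 77.0% without the widest 1% of peaks, and 5.46% against 61.0% in the upper 50% of every list. It was 1.95% against 78.3% in the upper 50% of tagged A498 peaks alone. It was 0.692% against 79.1% where no GFP peak of another list was allowed within 1 kb, and 0.541% against 75.5% with none within 10 kb.

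Division by score or width left the rule's part of this gap in place. Of the other peaks, 98.0% overlapped, by 1 bp or more, a tagged peak of 786-O, the line in which MYC was mapped. The rule left no such site to the A498-only peaks. A gap among peaks of like score therefore cannot be told apart from the rule, and the shares are descriptions. In each of the 9 lower score parts, 0.661 to 3.68% of the A498-only peaks and 80.1 to 87.6% of the other peaks had MYC. In the highest part 0 of 37 A498-only peaks did, which allows a share of up to 8.11% by 3 counts and 9.49% by the exact interval, and 66.3% of the other peaks did, a narrower gap than in the lower parts. The same limit applies to like widths. In 4 width classes, 0.937 to 1.42% of A498-only peaks had MYC. The share in the other peaks went from 70.5% under 200 bp to 85.6% from 350 bp. Among the A498-only peaks themselves, 9 of the highest 326 by score (2.76%, 1.27 to 5.18) and 3 of the lowest 327 (0.917%, 0.190 to 2.66) had MYC, shares whose intervals overlap.

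**Figure D1:**
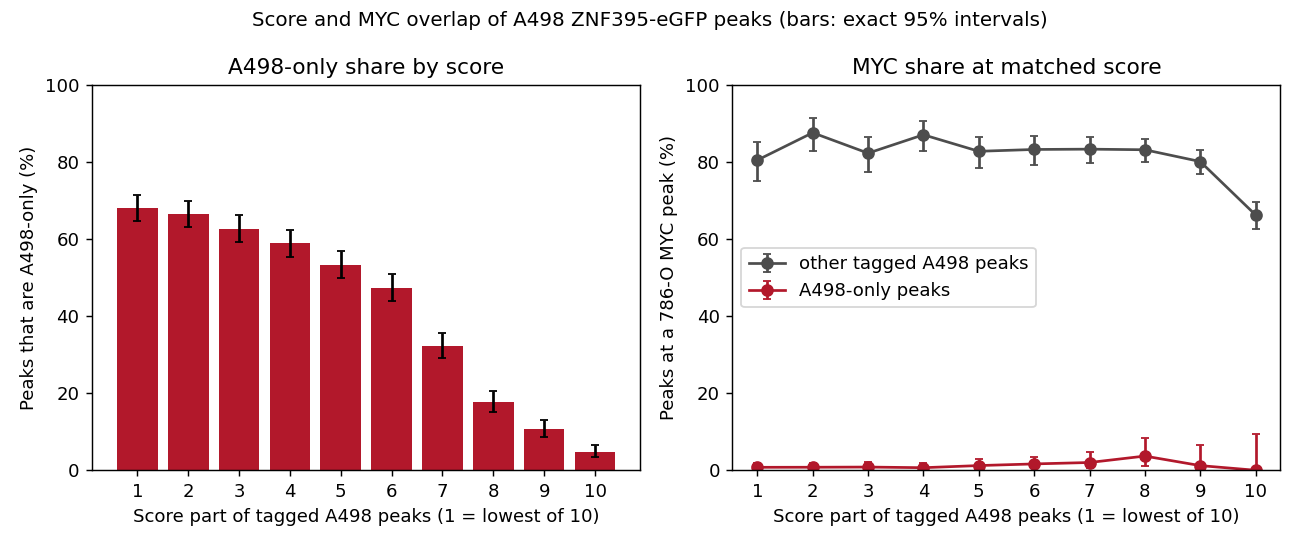
Left, the percentage of tagged A498 peaks that are A498-only in each of 10 equal parts by score, with exact 95% intervals: it falls from 68.1% to 4.79%. Right, the percentage at a 786-O MYC peak in the same parts, for A498-only peaks (red, at most 3.68%) and other A498 peaks (grey, at least 66.3%). Division by score does not remove the rule's part of this difference.

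The 37 A498-only peaks with MYC were weak too, with scores from 2.38 to 10.4 and a median of 5.41, and they lay closer to 786-O sites than the rest. A tagged 786-O peak was within 1 kb of 15 of the 37 (40.5%, 24.8 to 57.9) and of 54 of the 3224 without MYC (1.67%, 1.26 to 2.18), where the background over all tagged A498 peaks was 58.0%, overlaps included. Their median distance to a tagged 786-O peak was 7.02 kb, against 117 kb without MYC. Of the 37 MYC peaks at these sites, 12 (32.4%) overlapped a tagged 786-O peak themselves. Part of the closeness therefore follows from the split by MYC, and the values are descriptions. The highest A498-only peak with MYC was on chromosome 1 at 151965244 to 151965562 (score 10.4). Its MYC peak had rank 9449 of 20199, and a tagged 786-O peak lay 0.095 kb away. The one on chromosome 2 at 55276700 to 55277086 (score 8.50) lay 0.131 kb from a tagged 786-O peak, that on chromosome 17 at 75316316 to 75316491 (score 7.65) 0.185 kb, and that on chromosome 19 at 12899593 to 12899777 (score 8.65) 0.607 kb.

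Some others of the 10 highest with MYC lay 24.3 to 208 kb from the nearest tagged 786-O peak, beside a median of 115 kb for all A498-only peaks. On chromosome 2 at 169312689 to 169312949 (score 7.25), the MYC peak had a score of 35.5 and the nearest tagged 786-O peak was 208 kb away. On chromosome 3 at 32726609 to 32726780 (score 7.90) that distance was 96.2 kb, on chromosome 1 at 159851711 to 159851919 (score 7.44) 27.0 kb, and on chromosome 17 at 60729854 to 60730022 (score 8.02) 24.3 kb. The remaining members of the 10 were on chromosome 1 at 41950329 to 41950529 and chromosome 16 at 67212107 to 67212334. The MYC peaks at A498-only sites had a median MYC score of 17.5, near the 16.2 of the whole MYC list, while those at the other A498 peaks had 30.3. By chromosome, 19 held 7 of the 37, and 1, 2 and 17 held 4 each.

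Most A498-only sites were not shifted copies of a 786-O site. The median distance to the nearest tagged 786-O peak was 115 kb, and to a MYC peak 154 kb. A tagged 786-O peak lay within 1 kb of 69 A498-only peaks (2.12%), within 10 kb of 264 (8.10%, against 60.9% of all tagged A498 peaks) and within 100 kb of 1511 (46.3%, against 77.3%). Parental A498 peaks lay within 10 kb of 86 (2.64%, background 9.61%) and parental 786-O peaks within 10 kb of 87 (2.67%, background 22.1%). The backgrounds include the overlaps that the rule removed, and nothing is read from those differences. The rule itself cut few close cases: 9 A498-only peaks lay within 50 bp of a peak of the 3 lists, and 15 of the other A498 peaks overlapped one by 50 bp or less. The closest A498-only peak, on chromosome 22 at 46481361 to 46481593 (score 3.18), was 9 bp outside. The smallest overlap among the other peaks was also 9 bp, at 228296820 to 228296996 of chromosome 1 and 107642985 to 107643150 of chromosome 7, with scores of 4.32 and 5.30.

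**Figure D2:**
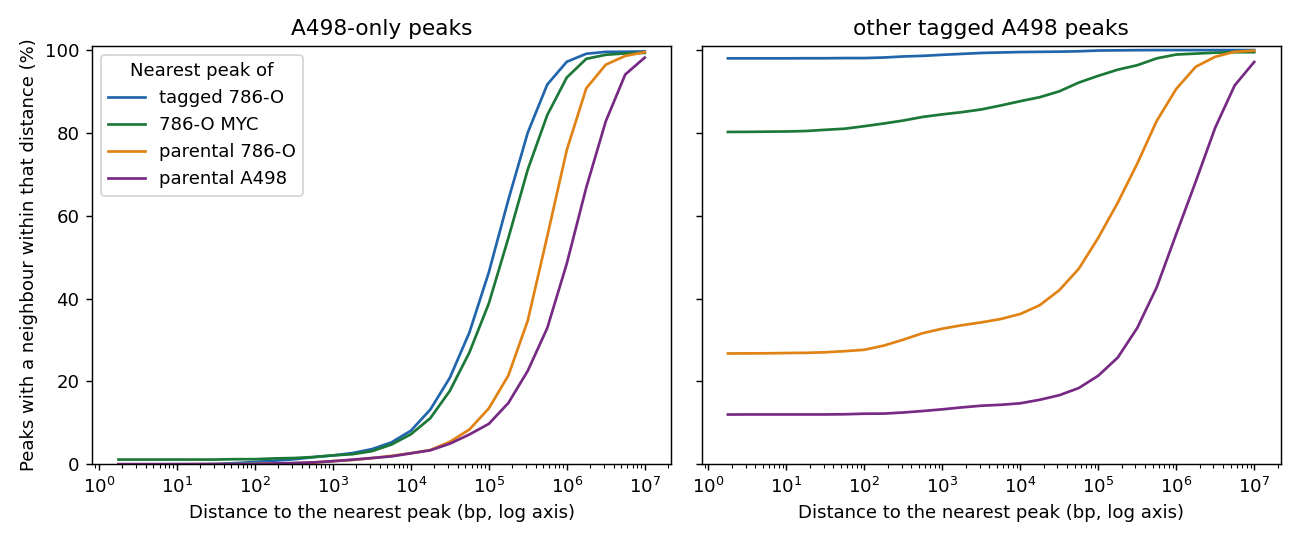
Percentage of A498-only peaks (left) and other A498 peaks (right) with a peak of each named list within the distance on the log axis (bp). For A498-only peaks the curve for tagged 786-O rises mainly between 10 kb (8.10%) and 100 kb and beyond (46.3%).

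The A498-only peaks were spread very unevenly over the chromosomes. Of the 3225 on the autosomes and X, 459 were on chromosome 2 (14.2%, 13.0 to 15.5) and 436 on chromosome 7 (13.5%, 12.4 to 14.7), against 8.35% and 7.19% of the other A498 peaks. Chromosomes 8 (278 peaks, 8.62%), 5 (249, 7.72%), 9 (236, 7.32%), 21 (79, 2.45%) and X (119, 3.69%) also held larger shares than among the other peaks (4.83%, 4.92%, 5.49%, 1.32% and 1.54%). At the low end, chromosome 18 held 2 A498-only peaks and 35 others, chromosome 14 held 9 and 65, chromosome 6 held 25 and 178, chromosome 3 held 43 and 203, and chromosome 11 held 47 and 190. Per Mb of the span that the 5 lists cover, A498-only peaks went from 0.0257 on chromosome 18 to 2.74 on chromosome 7, and the other A498 peaks from 0.447 on chromosome X to 4.06 on chromosome 17. Their median score hardly varied among the chromosomes with many of them, between 4.27 on chromosome 8 and 4.57 on chromosome 16 for chromosomes 2, 5, 7, 8, 9 and 16.

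The 3 GFP lists that the rule removed held smaller shares on chromosomes 2 and 7 than the A498-only peaks. Tagged 786-O peaks fell on chromosomes 2 and 7 in 7.38% and 5.92% of cases. Parental 786-O peaks did so in 8.96% and 5.99% of cases. Parental A498 peaks outside the dense bins did so in 8.85% and 7.32% of cases. Dense bins were left out of this list alone. With them it held 160 and 78 peaks on chromosomes 2 and 7, and without them 75 and 62. Chromosome 18, with 2 A498-only peaks, held 304 tagged 786-O peaks and 12 parental A498 peaks outside the dense bins.

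A measure that does not involve the A498-only peaks was the share of 786-O sites found again in A498. Of tagged 786-O peaks without a parental peak in either line, the share with a tagged A498 peak was 7.60% (4.71 to 11.5) on chromosome 18, 10.0% on chromosome 14 and 12.0% on chromosome 6. It was 22.5% (19.6 to 25.6) on chromosome 16, 21.6% on chromosome 9 and 20.6% (18.1 to 23.1) on chromosome 7. Across the 23 chromosomes this share and the density of A498-only peaks had a Spearman's rho of 0.59. The density of A498-only peaks had a higher rho, 0.74, with that of the other A498 peaks. With A498-only peaks counted per other A498 peak in place of per Mb, the rho with the share found again was 0.42. These measures share the tagged A498 library, and the relations are descriptions. Chromosome X had 1.75 A498-only peaks for each other A498 peak, more than any of the 22 autosomes, with 0.783 per Mb and 10.8% of its 786-O sites found again.

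**Figure D3:**
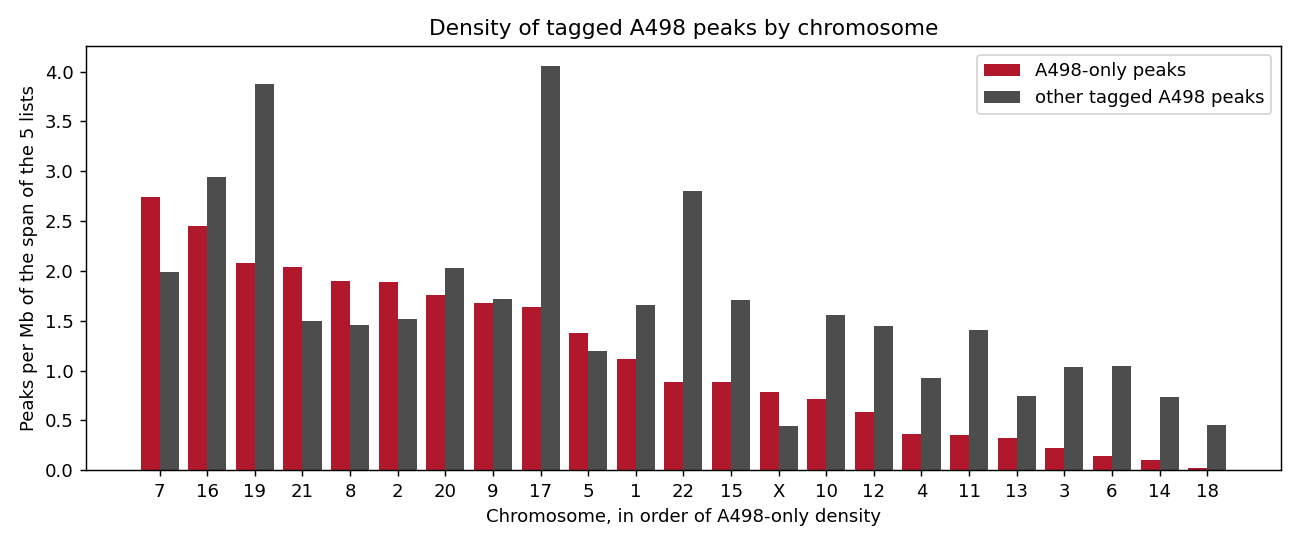
Peaks per Mb on chromosomes 1 to 22 and X, in falling order of A498-only density, for A498-only peaks (red bars) and other A498 peaks (grey bars). The red bars fall from 2.74 to 0.0257 per Mb, and the grey bars from 4.06 on chromosome 17 to 0.447 on chromosome X, in an order that is alike in part (Spearman's rho 0.74).

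Within chromosomes the A498-only peaks filled particular stretches. Among the 309 blocks of 10 Mb that held a peak of any list compared, the 20 with most A498-only peaks took in 921 of them (28.6%). The same blocks held 8.85% of the other A498 peaks, 7.53% of tagged 786-O peaks, 7.49% of MYC peaks and 11.1% of parental A498 peaks outside dense bins. The blocks were picked for their A498-only peaks, so only the shares of the other lists can be compared with one another. The fullest, the first 10 Mb of chromosome 5, held 92 A498-only and 9 other A498 peaks, with 54 tagged 786-O, 57 MYC and 5 parental A498 peaks. Chromosome 7 from 150 to 160 Mb held 74 and 27, the first 10 Mb of chromosome 2 held 69 and 8, chromosome 7 from 50 to 60 Mb held 60 and 8, and chromosome 8 from 130 to 140 Mb held 52 and 9.

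Long runs of neighbouring tagged A498 peaks consisted of A498-only peaks alone. There were 73 runs of 10 or more, which took in 1177 peaks, while 525 A498-only peaks stood between 2 other A498 peaks or at the end of a chromosome's list. Runs of the other A498 peaks, the longer list, were not counted, so the 2 sets cannot be compared in this. A run of 48 spanned chromosome 2 from 11511 to 3346448, where 786-O had 15 tagged and 11 MYC peaks. Another run of 48 spanned 5.27 Mb of distal chromosome 8, with 9 tagged 786-O peaks, and a run of 40 spanned chromosome 5 from 1855662 to 4724425, with 2. On chromosome 7, runs of 32, 29 and 24 lay at 51176761 to 54765657, 152620782 to 154761428 and 48380789 to 50728569, with 2 or 3 tagged 786-O peaks in each. A run of 25 lay on chromosome X from 63130425 to 68906075.

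At a finer scale, 1372 A498-only peaks (42.1%, 40.4 to 43.8) lay in 183 bins of 1 Mb with 5 or more of them, and 605 were alone in their bin. Of the other A498 peaks, a longer list, 45.9% (44.4 to 47.3) lay in bins with 5 or more of their own. Of the gaps between neighbouring other A498 peaks 17.0% were under 10 kb, against 7.49% among the A498-only peaks. The fullest bin, chromosome 5 from 2 to 3 Mb, held 19 A498-only peaks, no other A498 peak, 1 tagged 786-O peak and no MYC peak. Bins on chromosome 2 from 2 to 3 Mb, chromosome 7 from 57 to 58 Mb and chromosome X from 72 to 73 Mb each held 15 A498-only peaks and no other A498 peak. That on chromosome 7 also held 7 parental A498 peaks, and the other two held none. In all, 1333 A498-only peaks (40.9%) lay in bins without any other A498 peak, and 352 (10.8%) in bins without any tagged 786-O peak. Bins dense in parental peaks held 104 (3.19%) of the A498-only peaks and 9.06% of the other A498 peaks, with a background of 6.58%. Parental peaks define these bins, and the rule left out A498 peaks that overlap one, so part of this gap follows from the rule. Without these bins the share of A498-only peaks on chromosomes 2 and 7 was 27.8%, beside 27.4% with them.

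In the stretches rich in A498-only peaks, which were picked for those peaks, the share of 786-O sites found again was slightly higher. In the 20 fullest blocks 18.7% (16.6 to 21.0) of tagged 786-O peaks without a parental peak had a tagged A498 peak, against 16.0% (15.4 to 16.6) in all other blocks. Among the upper 50% of these 786-O peaks by score, the shares were 34.9% (31.2 to 38.8) and 29.2% (28.2 to 30.2), and among the lower 50% 3.60% (2.32 to 5.31) and 2.73% (2.38 to 3.11), where the intervals overlap. The other A498 peaks had a median score of 7.90 in the fullest blocks and 7.21 elsewhere. Over the 309 blocks, the count of A498-only peaks had a Spearman's rho of 0.53 with the other A498 peaks, 0.43 with parental A498 peaks outside dense bins, 0.39 with tagged 786-O peaks and 0.35 with MYC peaks, while the other A498 and tagged 786-O counts had one of 0.87 with each other. Blocks share the make-up of their sequence and, within A498, the library, so these values are descriptions. Peak lists hold no read coverage of the control libraries, and how many copies of each stretch the A498 genome carries was not analysed here.

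**Figure D4:**
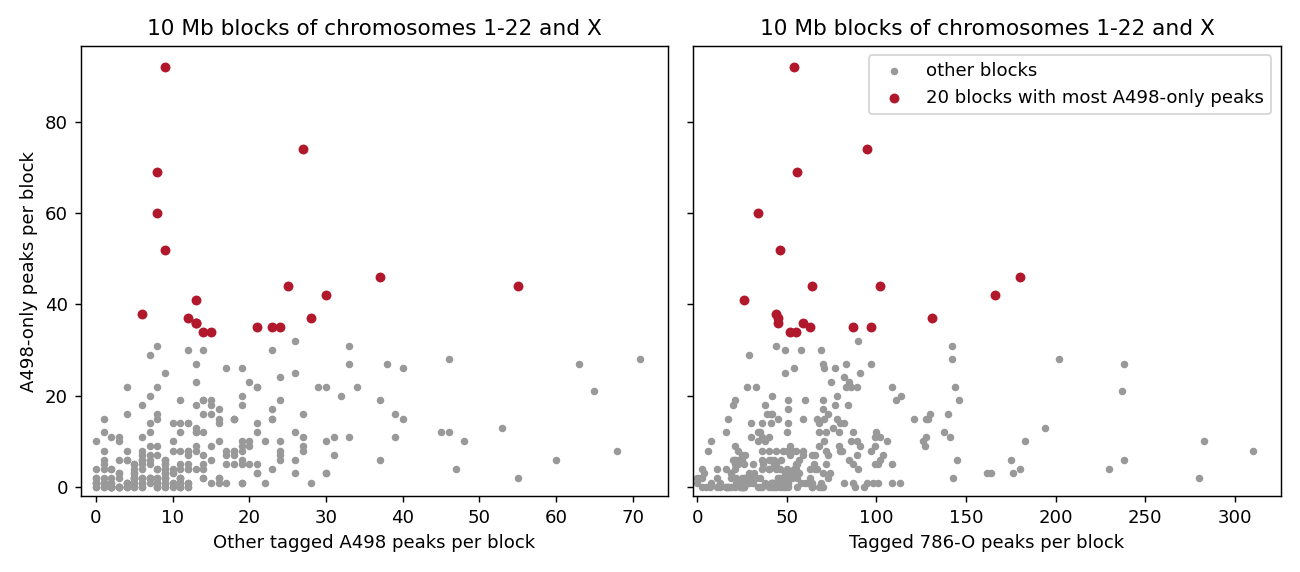
Each point is a 10 Mb block, with its A498-only peaks on the vertical axis and its other A498 peaks (left) or tagged 786-O peaks (right) on the horizontal axis. The 20 blocks with most A498-only peaks (red) include several with fewer than 10 other A498 peaks, such as the first 10 Mb of chromosome 5 (92 and 9).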

How the data were processed

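The 9 samples of the study give 5 peak lists and 4 inputs, which the authors used only as controls. BWA, MACS2 and the hg19 build are named per the submitters' processing notes, without versions or settings. Each list was called on 1 library against 1 control, per the peak names in the deposited files. Libraries were sequenced to 30 to 50 M reads on average, per the labels' protocols. The deposited peak score was read as the −log10 of a p or q because every list begins just above 2, as a threshold of 0.01 gives; which of them it is, is not given. Scores were used only within a list.

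Overlap means at least 1 bp in common, positions are 1-based, and distances run from edge to edge. Shares carry exact Clopper-Pearson 95% intervals. A count of 0 allows 3 counts. With 1 library per group no test was run. Peaks named are the 10 highest by score without MYC and the 10 highest with it, the 5 widest, the 5 next below the median score, the closest to the overlap limit and the fullest bins. The members, lists and comparisons were chosen with earlier results of these data known. The planned gene lists, positions in genes and sequence motifs could not be run on the reference tables used, which are of another build. Alternatives covered the overlap rule, margins, scores, wide peaks, contigs, parental subtraction and, added after the data were seen, dense parental bins. The tools were Python 3.11.15 with pandas 2.3.3, matplotlib 3.10.9, scipy 1.17.1 and numpy 2.4.6. The overlap code was tested on simulated data (0 of 5000 peaks wrong), and 0 of 8 overlap counts differed from bedtools 2.31.1.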

Additional observations from a re-analysis of the deposited data

How the results depend on the processing

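Of 70 values (7 results under 10 alternatives), 36 stayed within the 95% interval of the reported value and 34 left it. With a 50% reciprocal overlap the A498-only set was 76.1% of tagged A498 peaks, 8.07% had MYC, the median score was 5.12 and the median width 228 bp, 22.2% lay on chromosomes 2 and 7, 50.2% in bins with 5 or more, and 70.2% within 100 kb of a tagged 786-O peak. With midpoints within 200 bp these were 55.0%, 9.47%, 4.77, 221 bp, 24.6% and, for the distance, 58.8%. Both rules can reject a narrow peak inside a much wider one, by construction. With no other GFP peak within 1 kb, 0.692% had MYC. With none within 10 kb, the set was 38.3%, 0.541% had MYC and 41.4% lay within 100 kb. In the upper 50% of tagged A498 peaks the set was 22.6%, MYC 1.95%, the median score 6.85, chromosomes 2 and 7 held 25.5% and bins with 5 or more held 10.1%. In the upper 50% of every list they were 27.1%, 5.46%, 6.95, 23.4% and 10.8%, with a width of 212.5 bp and 42.3% within 100 kb. Fewer peaks per bin follow from the shorter lists. Without the widest 1% the set was 44.8%, MYC 4.00% and the share within 100 kb 48.2%. The set was 43.4% without parental subtraction and 43.8% without the dense parental bins, added after the data were seen. For the remaining moves the cause was not tested. No paired analysis was possible because each group is 1 library. No list gives the reads behind a peak, so depth cannot be set beside any value.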
